A study of Mus musculus with 4 samples.

Results

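Acute phase proteins are plasma proteins that the liver makes in larger or smaller amounts during injury and inflammation. The 10 genes described here were *Saa1*, *Saa2*, *Saa3*, *Saa4*, *Apcs*, *Hp*, *Hpx*, *Orm1*, *Orm2* and *Lcn2*. They were taken from a list of liver acute phase genes, and each was read at every probe set that the array annotation assigns to its symbol alone. These were 12 of the 45101 probe sets on the array and 10 of its 18193 genes with a probe set naming 1 gene, and 0 probe sets named a member together with another gene. RNA came from non-tumorous liver of 2 *G9a*ΔHep mice (Alb-Cre; G9aflox/flox) and 2 WT mice (Alb-Cre; G9a+/+), with 1 Affymetrix Mouse430_2 array each. All were male, backcrossed to C57BL/6 and 30 weeks old, and all had received 25 mg/kg of the carcinogen diethylnitrosamine (DEN) at 15 days of age and then 22 weekly injections of 0.5 ml/kg of the hepatotoxin carbon tetrachloride (CCl4). G9a is a histone methyltransferase, encoded by *Ehmt2*. Cre is driven by the albumin promoter and removes the floxed gene in hepatocytes, so that other liver cells of *G9a*ΔHep mice keep it. Both genotypes carried the Cre transgene and received both agents, and no untreated liver was analysed here.

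Hepatocytes raise the transcription of positive acute phase genes when cytokines from macrophages and other cells reach them. Interleukin-6 acts through its receptor, JAK kinases and STAT3, and interleukin-1 and TNF act through NF-kB and C/EBP factors. Serum amyloid A is the major acute phase apolipoprotein of mice and can increase very steeply, whereas albumin and transthyretin are negative acute phase proteins and decrease. The comparison asks how the liver expression of these genes differed between *G9a*ΔHep and WT mice after the same carcinogen treatment.

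Each probe set has a MAS5 signal, which is a linear brightness after background correction, and is called Present, Marginal or Absent. Between 41.3% and 43.9% of the probe sets were called Present on an array, the 95% quantile of Absent signals was 170 to 181, and the highest signal on an array was 91121 to 99523. Arrays of the same genotype had Pearson correlations of 0.969 and 0.971 over log2 signals, and those of different genotypes 0.959 to 0.967. At the detected *Ehmt2* probe set the signal was 174 and 164 in *G9a*ΔHep livers, called Absent on both arrays, and 640 and 492 in WT livers, called Present on both (adjusted p = 0.0616, limma). The geometric mean of WT livers was 3.33-fold above that of *G9a*ΔHep livers. Setting each Absent signal no lower than the lowest Present signal of its array did not change this estimate. Whether this probe set lies in the deleted exons was not determined. All 12 acute phase probe sets were Present on all 4 arrays, and all passed the filter for testing.

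None of the 12 probe sets differed between *G9a*ΔHep and WT livers at an adjusted p under 0.05 (limma with Benjamini-Hochberg adjustment over 19842 probe sets), where 0.282% of all probe sets tested did, 0.232% being higher and 0.0504% lower in *G9a*ΔHep livers. Without adjustment, 4 of 12 had a p under 0.05, against a background of 9.33%. Of these, both *Saa4* probe sets and *Saa3* were lower in *G9a*ΔHep livers and *Apcs* was higher, where 3.76% of all probe sets had such a p and were lower and 5.56% were higher. By the methods' t-test the adjusted count was 0 of the 12 and also 0 of all 19842 probe sets. At an unadjusted p under 0.05 it gave 0 of the 12 higher, against 4.01% of all probe sets, and 1 lower, against 3.77%. The same 4 probe sets had signals that did not overlap between the genotypes, 1 of them higher in *G9a*ΔHep livers, where 22.5% of all probe sets tested were, and 3 lower, where 18.8% were. The other 8 overlapped. Over the 10 genes, each at its brightest probe set, the median log2 fold change was -0.10, with 3 genes above 0 and 7 below, of which *Hp* was at 0.056 under quantile normalization, and over all 10350 genes tested it was 0.023. The smallest two-sided p of an exact permutation test is 0.33 with 2 mice a genotype. In whole liver RNA fewer cells of a type and less RNA per cell cannot be told apart.

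**Figure D1:**
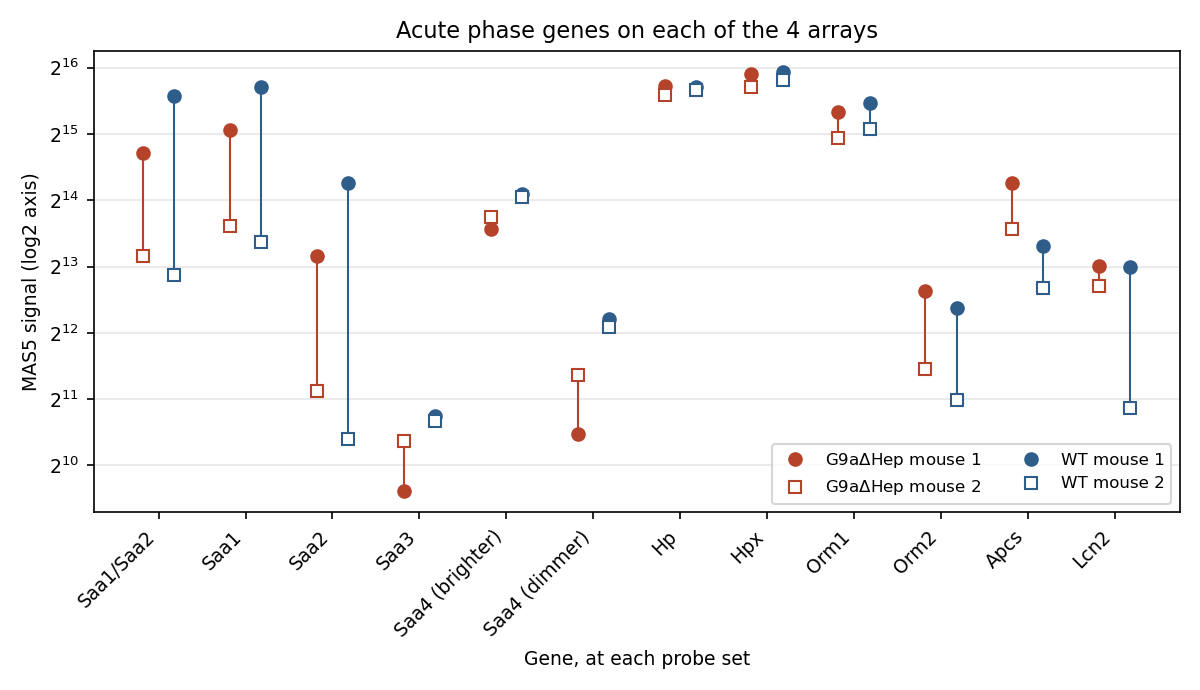
MAS5 signal (log2 axis) of each acute phase gene on each of the 4 arrays, with *G9a*ΔHep mice in red left of WT mice in blue. Filled circles are mouse 1 and open squares mouse 2 of a genotype, and a line joins the 2 mice. *Saa1*/*Saa2* is the probe set that cannot be assigned to either gene alone. *Apcs*, both *Saa4* probe sets and *Saa3* show no overlap between genotypes, whereas the 2 mice of a genotype lie far apart for *Saa1*, *Saa2* and *Orm2*.

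*Saa4* encodes the serum amyloid A that the liver makes constitutively and that circulates on high density lipoprotein. It lies with the other *Saa* genes on chromosome 7 (chr7:46727992-46732603, GRCm38.p6) and was read at 2 probe sets. On the brighter probe set the signal was 12157 and 13787 in *G9a*ΔHep livers, against 17559 and 17020 in WT livers. Both *G9a*ΔHep values lay below both WT values, with a log2 fold change of -0.42 (SE 0.11, 95% interval -0.67 to -0.16, adjusted p = 0.307, limma). At the dimmer probe set the signal was 1425 and 2646 in *G9a*ΔHep livers, against 4735 and 4353 in WT livers. There the log2 fold change was -1.23 (SE 0.28, 95% interval -1.88 to -0.57, adjusted p = 0.229). This was the widest difference between genotypes among the 12 probe sets, and the signals again did not overlap. Without *G9a*ΔHep mouse 2 it was -1.67 with an adjusted p of 0.0154, which was the sole value of a member past the threshold when each array was left out in turn.

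The 2 *Saa4* probe sets gave differences of unlike size. The ratio of the brighter to the dimmer within an array was 8.53 and 5.21 in *G9a*ΔHep livers, against 3.71 and 3.91 in WT livers. The ratio was thus higher on both *G9a*ΔHep arrays, and it differed more between the *G9a*ΔHep mice than between the WT mice. Among all genes, those whose centred log2 profile over the 4 arrays lay nearest to that of the dimmer probe set were *Cbr1*, a carbonyl reductase, *Gsta4*, a glutathione S-transferase, and *Sgtb*, a co-chaperone, at root mean square distances of 0.135, 0.163 and 0.164. *Gsta4* had signals of 1382 and 1866 in *G9a*ΔHep livers, against 3928 and 3544 in WT livers.

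*Saa3* encodes a serum amyloid A that in mice is made by macrophages and adipocytes as well as by the liver (chr7:46711998-46719615). Its signal was 780 and 1326 in *G9a*ΔHep livers, against 1709 and 1634 in WT livers. The WT mice lay close together and both above the *G9a*ΔHep mice, with a log2 fold change of -0.72 (SE 0.25, 95% interval -1.33 to -0.11, adjusted p = 0.468). Macrophage markers had values in the other direction. Of the 19 markers tested, 19 had a log2 fold change above 0 and 0 passed the threshold, with a median of 0.46. Leaving out each array in turn gave medians of 0.19 (without WT mouse 1), 0.22 (without *G9a*ΔHep mouse 1), 0.70 (without WT mouse 2) and 0.78 (without *G9a*ΔHep mouse 2). Their summed signal was 81592 and 53078 in *G9a*ΔHep livers, against 39180 and 55804 in WT livers, so that the sums overlapped between genotypes. Of the adipocyte markers, *Adipoq* and *Lep*, which define these cells, were Absent on all 4 arrays, and *Cidec*, the sole adipocyte marker tested, had 0.30 (adjusted p = 0.898).

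*Apcs* encodes serum amyloid P component, a pentraxin and the main acute phase pentraxin of the mouse (chr1:172893961-172895054). It was the sole member with higher signals in both *G9a*ΔHep livers, at 19709 and 12189, than in both WT livers, at 10207 and 6540. The mean was 15949 ± 5318 in *G9a*ΔHep livers and 8374 ± 2593 in WT livers (SD, n = 2 each), and the geometric means differed 1.90-fold. In the fit the log2 fold change was 0.92 (SE 0.28, 95% interval 0.26 to 1.58, adjusted p = 0.392). Leaving out each array in turn gave 0.58 to 1.27. *Crp*, the related pentraxin that is a minor acute phase protein in mice, had 19086 and 20646 in *G9a*ΔHep livers, against 22627 and 23527 in WT livers (log2 fold change -0.22, adjusted p = 0.535), and was named after its values were seen.

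*Saa1* and *Saa2* encode the inducible serum amyloid A proteins, which displace other apolipoproteins on high density lipoprotein in inflammation and can deposit as amyloid. They lie near each other on chromosome 7, *Saa1* at chr7:46740497-46743181 and *Saa2* at chr7:46751833-46754313, and are close copies, so that probe sets may read both. *Saa1* had 2 probe sets. The target of 1 of them is a transcript that RefSeq lists under *Saa2*, so that its signal cannot be assigned to either gene alone, and it is called the *Saa1*/*Saa2* probe set. The RefSeq promoters of the pair, 250 bases before the start site and 50 after it, are shown 5′ to 3′ on the strand of the gene because these genes had the widest ranges of the members. Capitals mark a match to TTGCNNAA, a C/EBP consensus.

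Saa1: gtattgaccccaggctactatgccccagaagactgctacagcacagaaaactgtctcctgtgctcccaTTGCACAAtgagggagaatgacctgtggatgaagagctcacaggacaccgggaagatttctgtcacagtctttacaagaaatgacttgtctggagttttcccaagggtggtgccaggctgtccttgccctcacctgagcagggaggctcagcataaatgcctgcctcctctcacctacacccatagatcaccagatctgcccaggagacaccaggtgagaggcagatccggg

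Saa2: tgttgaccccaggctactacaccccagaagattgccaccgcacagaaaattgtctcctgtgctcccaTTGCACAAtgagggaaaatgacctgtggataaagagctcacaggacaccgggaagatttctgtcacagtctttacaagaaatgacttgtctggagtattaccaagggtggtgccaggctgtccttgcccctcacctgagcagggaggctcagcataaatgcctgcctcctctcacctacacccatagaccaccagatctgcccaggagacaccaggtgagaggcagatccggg

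The first is chr7:46742931-46743230 on the minus strand and the second chr7:46751583-46751882 on the plus strand (GRCm38.p6). An alignment of the pair had 287 identical columns of 301, or 95.3%, whereas all other pairs among the 8 member promoters in the RefSeq table had 43.3% to 51.9%. The match began at base -182 in *Saa1* and at -183 in *Saa2*, counted from the start site.

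At the *Saa1* probe set the signal was 34261 and 12552 in *G9a*ΔHep livers, against 53546 and 10567 in WT livers. The highest and the lowest of the 4 values were thus both WT, and the *G9a*ΔHep values lay between them. The interval was wide, with a log2 fold change of -0.20 and 95% limits of -2.01 and 1.61 (SE 0.76, adjusted p = 0.954). At the *Saa1*/*Saa2* probe set the signal was 26828 and 9194 in *G9a*ΔHep livers, against 48708 and 7482 in WT livers (log2 fold change -0.28, SE 0.86, adjusted p = 0.941). *Saa2* had 9150 and 2231 in *G9a*ΔHep livers, against 19572 and 1349 in WT livers. Its 4 values had the same order as those of *Saa1* and a wider range. *Saa2* also had the widest interval of the members, with a log2 fold change of -0.19 and 95% limits of -3.05 and 2.68 (SE 1.20, adjusted p = 0.975). Without WT mouse 1 the log2 fold change was 1.74 for *Saa2* and 0.97 for *Saa1*, and without WT mouse 2 it was -2.11 and -1.37.

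*Hp* and *Hpx* encode haptoglobin and hemopexin, which bind free haemoglobin and haem in plasma. *Hp* (chr8:109575128-109579172) had signals of 53861 and 49256 in *G9a*ΔHep livers, against 53360 and 51961 in WT livers. *Hpx* (chr7:105591611-105600116) had 61100 and 53778 in *G9a*ΔHep livers, against 62849 and 57382 in WT livers. Both genes had narrow intervals. The log2 fold change was -0.032 for *Hp* (SE 0.087, 95% interval -0.24 to 0.18, adjusted p = 0.936) and -0.067 for *Hpx* (SE 0.099, 95% interval -0.30 to 0.17, adjusted p = 0.862). Whether such bright probe sets were saturated cannot be read from MAS5 signals.

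*Orm1* and *Orm2* encode orosomucoids, or alpha-1-acid glycoproteins, which are lipocalins that carry drugs and other small molecules in plasma. They are neighbours on chromosome 4 (chr4:63344556-63348163 and chr4:63362449-63365877). *Orm1* had signals of 41382 and 31439 in *G9a*ΔHep livers, against 45491 and 34432 in WT livers. The mice of each genotype differed by the same factor of 1.32, and the log2 fold change was -0.13 (SE 0.18, 95% interval -0.55 to 0.28, adjusted p = 0.840). At *Orm2* the signal was 6341 and 2799 in *G9a*ΔHep livers, against 5329 and 2038 in WT livers. Here the mice of a genotype differed more than the genotypes did, by 2.27-fold among *G9a*ΔHep mice and 2.61-fold among WT mice. *Orm2* had a log2 fold change of 0.35 (SE 0.51, 95% interval -0.87 to 1.58, adjusted p = 0.859). The promoter of *Orm2* at chr4:63362199-63362498 on the plus strand is shown for comparison with the *Saa* genes. Capitals mark the C/EBP consensus, at base -120, and a TATAAA motif, at -33.

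Orm2: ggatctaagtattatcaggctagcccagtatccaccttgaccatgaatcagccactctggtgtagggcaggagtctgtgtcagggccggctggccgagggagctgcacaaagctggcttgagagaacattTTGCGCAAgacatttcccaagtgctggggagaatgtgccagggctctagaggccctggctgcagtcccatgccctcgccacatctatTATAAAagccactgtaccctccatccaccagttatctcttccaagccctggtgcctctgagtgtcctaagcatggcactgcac

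The *Saa4* promoter, at chr7:46732554-46732853 on the minus strand, is shown because the dimmer *Saa4* probe set had the widest difference between genotypes. It held the C/EBP consensus at 2 places, at -245 and, read on the other strand, at -52.

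Saa4: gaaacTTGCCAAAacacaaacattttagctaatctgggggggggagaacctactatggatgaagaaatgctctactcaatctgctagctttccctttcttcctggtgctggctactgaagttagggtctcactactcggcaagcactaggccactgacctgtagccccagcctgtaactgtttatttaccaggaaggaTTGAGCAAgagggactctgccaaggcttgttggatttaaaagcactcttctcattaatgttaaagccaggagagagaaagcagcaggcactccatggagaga

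The letters TTGCNNAA were found, on either strand, in 7 of the 8 member promoters and in 10.8% of all 32851 promoters of the table. The 7 include *Saa1* and *Saa2*, whose promoters were 95.3% identical and held the same TTGCACAA, so that they are not separate cases. TATAAA was found in 1 of the 8 (13.6% of all promoters), TTCNNNGAA, a STAT3 consensus, in 1 (8.3%), which was that of *Apcs*, and GGGA and CC with 4 bases between them, an NF-kB consensus, in 0 (20.7%). For NF-kB only this pattern was searched, so that sites with other letters would be missed and the 0 does not show that such sites are lacking. These are matches of letters within 300 bases and say nothing on their own about binding.

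*Lcn2* encodes lipocalin 2, which binds bacterial siderophores and is made by hepatocytes as well as neutrophils (chr2:32384637-32387739). Its signal was 8203 and 6655 in *G9a*ΔHep livers, against 8160 and 1872 in WT livers. Both *G9a*ΔHep mice and WT mouse 1 were high, and WT mouse 2 stood apart, 4.36-fold below the other WT mouse. Over both WT mice the log2 fold change was 0.92 (SE 0.60, 95% interval -0.51 to 2.34, adjusted p = 0.676), and it was -0.14 without WT mouse 2 and 1.98 without WT mouse 1. Most neutrophil markers were not detected. Of 12 with a probe set, 9 had no Present call, among them *Ltf*, the lactoferrin of neutrophil granules. The summed signal of the 3 tested was 2410 and 390 in *G9a*ΔHep livers, against 1124 and 758 in WT livers. *S100a8*, a neutrophil calcium binding protein, had 1331 and 174 in *G9a*ΔHep livers, against 660 and 332 in WT livers (log2 fold change 0.039, adjusted p = 0.991). *S100a9*, its partner, had a log2 fold change of 0.25 (adjusted p = 0.938) and was Absent in WT mouse 2. *Ngp*, a granule protein, had one of -0.39 (adjusted p = 0.808). Its signals, 145 and 71.4 in *G9a*ΔHep livers, against 119 and 149 in WT livers, all lay under the 95% quantile of Absent probe sets. *S100a8* and the sum were both lowest in *G9a*ΔHep mouse 2, whereas *Lcn2* was lowest in WT mouse 2. The part of neutrophils in the values of *Lcn2* was not tested.

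**Figure D2:**
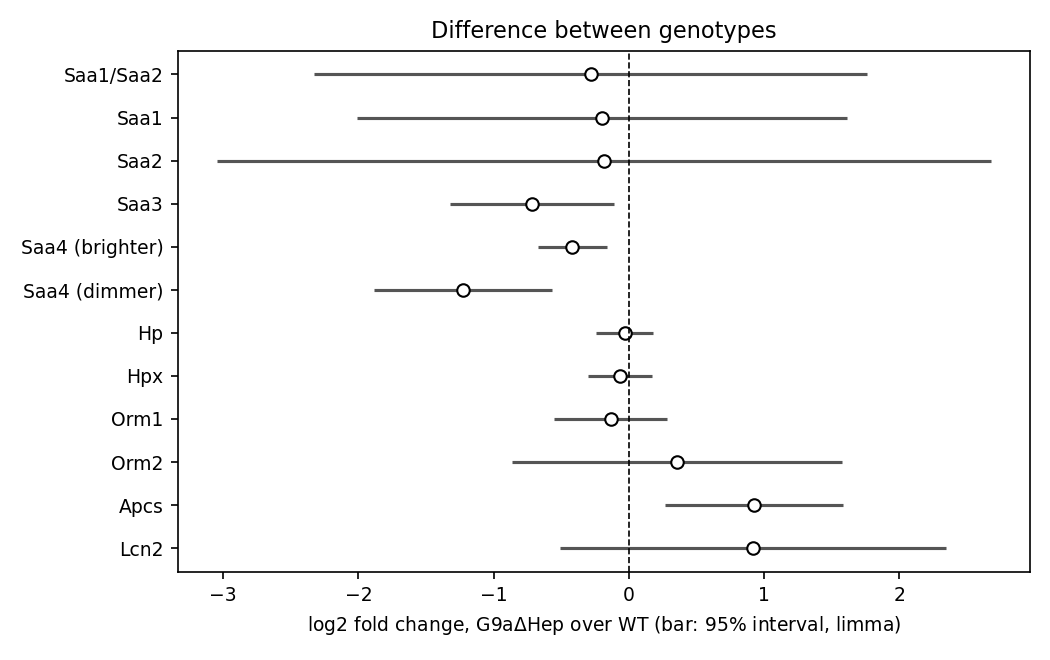
Log2 fold change of *G9a*ΔHep over WT livers for each of the 12 probe sets, with the 95% interval from limma. The intervals of *Saa3*, both *Saa4* probe sets and *Apcs* do not include 0 before adjustment, those of *Saa1* and *Saa2* span more than 3 units, and those of *Hp* and *Hpx* are the narrowest.

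For several members the mice of the same genotype differed more than the genotypes did. The numbers 1 and 2 follow the order of accessions within a genotype and do not pair the mice, so that turning the numbers round in 1 genotype would turn the counts below. Mouse 1 was above mouse 2 in both genotypes for 9 of the 12 probe sets and 8 of the 10 genes, against 29.1% of all probe sets and 29.4% of all genes. It was at least 2-fold above in both genotypes for 4 of the 12, against 0.499% of all probe sets, and at least 2-fold below for 0, against 0.267%. The 4 were *Saa2*, *Saa1*, *Saa1*/*Saa2* and *Orm2*. The median absolute log2 difference between the 2 mice was 0.73 in *G9a*ΔHep and 0.52 in WT mice over the member probe sets, against 0.24 and 0.23 over all probe sets. *Saa2* differed 4.10-fold between the *G9a*ΔHep mice and 14.5-fold between the WT mice, and 0.615% and 0.151% of all probe sets differed by as much. *Saa1* differed 2.73-fold between the *G9a*ΔHep mice and 5.07-fold between the WT mice. *Apcs* differed by similar factors in the genotypes, 1.62-fold in *G9a*ΔHep and 1.56-fold in WT mice. *Saa3* and both *Saa4* probe sets did not share this order, since they were lower in mouse 1 among *G9a*ΔHep mice and nearly equal in WT mice. The 3 genes whose profile lay nearest to that of *Saa2* were *Hsd3b5*, a steroid dehydrogenase, *Saa1* and *Slc35f1*, a solute carrier, at distances of 0.387, 0.576 and 0.679. *Saa2* was chosen for this after its values were seen.

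Genes of the circadian clock, a list added and named from after values had been seen, differed between the same mice. *Dbp*, a clock-controlled transcription factor, had 615 and 7350 in *G9a*ΔHep livers, against 423 and 6760 in WT livers. *Cry1*, a clock repressor, had the opposite order, with 634 and 222 in *G9a*ΔHep livers, against 632 and 240 in WT livers. *Arntl*, which encodes the clock activator BMAL1, had 721 and 229 in *G9a*ΔHep livers, against 543 and 228 in WT livers. For *Dbp*, *Cry1* and *Arntl*, mouse 1 of each genotype thus resembled mouse 1 of the other more than it did the other mouse of its own genotype. Of the 14 clock genes tested, mouse 1 was above mouse 2 in both genotypes for 4 and below it in both for 9. The sources used here do not give the time of day at which livers were taken, and its part in the range of *Saa1*, *Saa2* and *Orm2* was not tested.

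**Figure D3:**
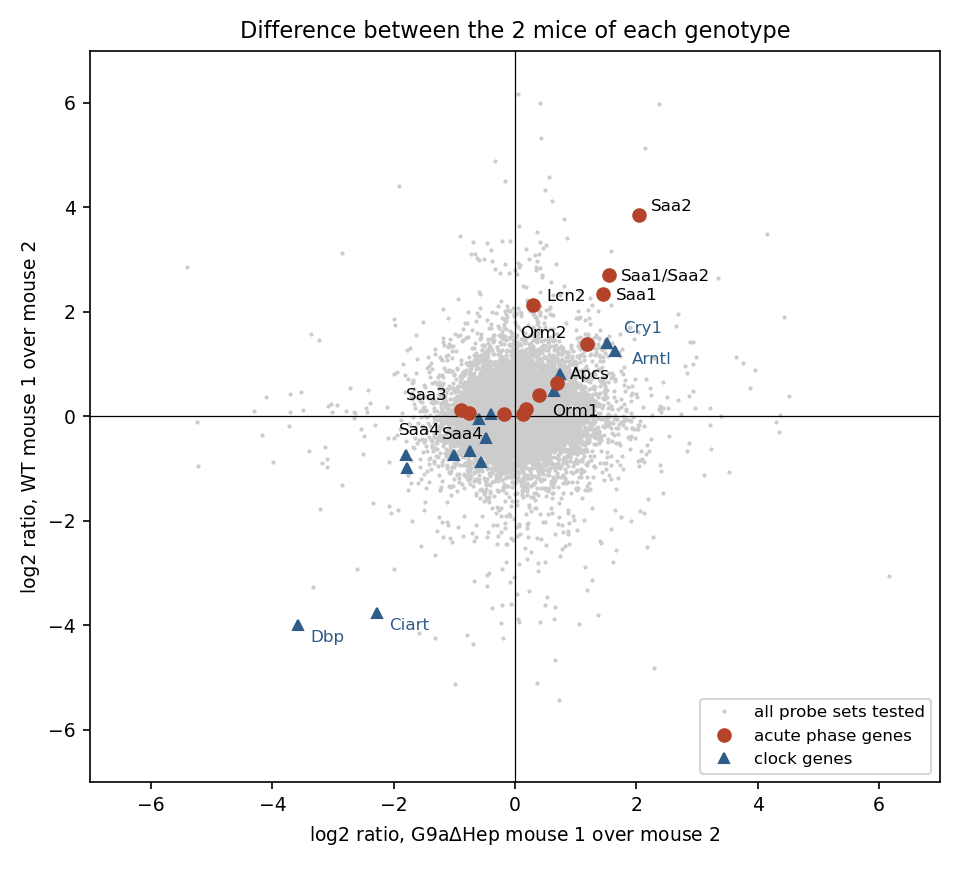
Log2 ratio of mouse 1 to mouse 2 among *G9a*ΔHep mice (horizontal axis) and among WT mice (vertical axis), for all probe sets tested in grey, the acute phase probe sets as red circles and clock genes as blue triangles. *Saa2*, *Saa1* and *Orm2* lie at the upper right with *Cry1* and *Arntl*, and *Dbp* and *Ciart* at the lower left.

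None of the genes of the other lists passed the threshold between genotypes in the fit of 1 probe set per gene, where 0.319% of the 10350 genes were higher and 0.0676% lower. Among the cytokines and transducers that drive the acute phase response, 25 of 34 genes with a probe set could be tested and their median log2 fold change was 0.13, which was 0.043 without *G9a*ΔHep mouse 1 and 0.074 without WT mouse 1. *Tnf* was Absent on all 4 arrays, and *Il6* had no Present call, with 49.2 and 32.6 in *G9a*ΔHep livers, against 12.0 and 2.09 in WT livers. *Il1b* had 337 and 130 in *G9a*ΔHep livers, against 151 and 173 in WT livers (log2 fold change 0.37, adjusted p = 0.831). Of these ligands only *Il1b* was thus tested. *Il1rap*, the accessory chain of the interleukin-1 receptor, had 7210 and 7704 in *G9a*ΔHep livers, against 10775 and 10889 in WT livers (log2 fold change -0.54, SE 0.10, adjusted p = 0.157). *Socs3*, a feedback inhibitor that STAT3 induces, had 1937 and 1008 in *G9a*ΔHep livers, against 743 and 875 in WT livers (log2 fold change 0.79, SE 0.31, adjusted p = 0.491). Neither gene overlapped between genotypes, where 22.3% of all genes tested were higher without overlap and 19.3% lower. *Socs3*, like *Saa1* and *Apcs*, was higher in mouse 1 among *G9a*ΔHep mice. Among WT mice *Socs3* was lower in mouse 1, whereas *Saa1* and *Apcs* were higher. Values were 0.26 for *Stat3* (adjusted p = 0.752), 0.0091 for *Cebpb* (adjusted p = 0.988) and 0.39 for *Irak1*, a kinase of interleukin-1 signalling (adjusted p = 0.379).

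The 30 other positive acute phase genes tested had a median log2 fold change of -0.016. Those with the smallest p were *Mbl2*, a mannose binding lectin, at -0.43 (adjusted p = 0.384), *Itih3*, a hyaluronan binding inhibitor chain, at -0.53 (adjusted p = 0.480), and *Hamp*, the iron hormone hepcidin, at 0.30 (adjusted p = 0.496). In 24 of these 30 genes mouse 1 was above mouse 2 in both genotypes, as for most members, against 29.4% of all genes. The median difference between the mice was, however, only 0.25 on the log2 scale in each genotype. The 12 negative acute phase genes had a median of -0.039, and mouse 1 was above mouse 2 in both genotypes for 11. Their median log2 difference between the mice was 0.16 in *G9a*ΔHep and 0.10 in WT mice. Among them were *Igf1*, the insulin-like growth factor, at -0.30 (adjusted p = 0.505), *Serpina6*, the corticosteroid binding globulin, at 0.42 (adjusted p = 0.532), and *Igfals*, which carries *Igf1* protein in plasma, at -0.50 (adjusted p = 0.582). By sign alone, most positive and negative acute phase genes ran the same way between the mice of a genotype, the negative ones by small amounts. The source of these small differences was not tested.

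Among receptors and clearance genes of the acute phase proteins, 16 of 20 were tested, with a median of 0.29 that was 0.16 without *G9a*ΔHep mouse 1. *Lrp2*, or megalin, an endocytic receptor that takes up *Lcn2* protein in the kidney, had 258 and 230 in *G9a*ΔHep livers, against 82.0 and 65.4 in WT livers. This log2 fold change of 1.73 (SE 0.31, adjusted p = 0.140) rests on WT signals below the 95% quantile of Absent probe sets. *Cd36*, a scavenger receptor that binds serum amyloid A, had -0.67 (adjusted p = 0.300), and *Blvrb*, a biliverdin reductase in haem breakdown, -0.49 (adjusted p = 0.357).

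Hepatocyte markers were Present throughout, and the 14 tested had a median log2 fold change of -0.0091. The 3 with the smallest p were *Cps1*, of the urea cycle, at -0.23 (adjusted p = 0.494), *Alb*, or albumin, at -0.12 (adjusted p = 0.752), and *Pck1*, of gluconeogenesis, at -0.10 (adjusted p = 0.794). Of the macrophage markers, *Lyz2*, a lysozyme, had 13135 and 8086 in *G9a*ΔHep livers, against 4105 and 7611 in WT livers (log2 fold change 0.88, adjusted p = 0.480), whereas the other macrophage markers among the 3 with the smallest p lay mostly within the range of Absent signals. *Itgax*, an integrin of macrophages and dendritic cells, had 163 and 145 in *G9a*ΔHep livers, both Present, against 64.0 and 73.4 in WT livers, both Absent (adjusted p = 0.357). *Cx3cr1*, a chemokine receptor, had 207 and 135 in *G9a*ΔHep livers, against 109 and 21.9 in WT livers, and mouse 2 of each genotype was Absent (adjusted p = 0.532). No fold is given for either, since all 4 signals of *Itgax* and 3 of 4 of *Cx3cr1* lie under the 95% quantile of Absent probe sets. All 10 stellate cell markers tested had values above 0 on the deposited scaling, with a median of 0.45 that was 0.15 without *G9a*ΔHep mouse 1 and 0.72 without *G9a*ΔHep mouse 2, and the lowest, *Rgs5* at 0.026, lies within the shift of -0.065 that median centring of the arrays gives. Those with the smallest p were *Acta2*, smooth muscle actin, at 1.10 (adjusted p = 0.198), and the collagens *Col1a2* at 0.80 (adjusted p = 0.536) and *Col3a1* at 1.13 (adjusted p = 0.552). *Acta2* had 531 and 405 in *G9a*ΔHep livers, against 201 and 232 in WT livers. It was Absent in WT mouse 1 and Marginal in *G9a*ΔHep mouse 2. The 9 reference genes had a median of -0.060, with *Sdha* at -0.22 (adjusted p = 0.532), *Rplp0* at -0.15 (adjusted p = 0.665) and *Ywhaz* at 0.16 (adjusted p = 0.707). The part of these cell types in the values of *Saa3*, *Saa4* and *Apcs* was not tested.

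**Figure D4:**
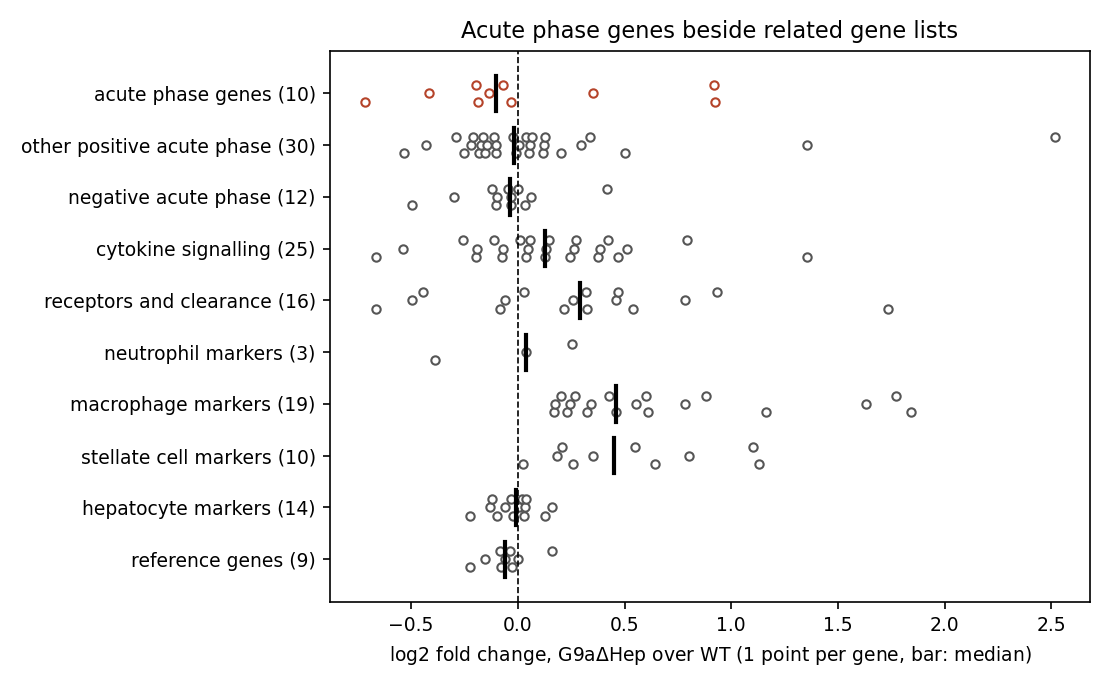
Log2 fold change of *G9a*ΔHep over WT livers in the fit of 1 probe set per gene, for the 10 acute phase genes in red and for each related list in grey, with 1 point per gene, the median as a bar and the number of genes in parentheses. The medians of the plasma protein, hepatocyte and reference lists lie near 0, and all 19 macrophage and all 10 stellate cell markers lie above it on the deposited scaling, *Rgs5* by less than the shift of median centring.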

How the data were processed

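Total RNA of non-tumorous liver from 2 *G9a*ΔHep and 2 WT mice was measured on 1 array per mouse, and groups were taken from the submitters' labels. The authors processed the arrays with MAS5, whose version the sources used here do not give. Deposited signals are intensities, background-corrected and scaled per array to a 2% trimmed mean of 500.0, and the deposited detection p-value underlies the calls. The series table held the same signals (largest relative difference 5e-06). Of 45101 probe sets 64 were controls, 34945 named 1 gene, 932 several and 9160 none. Symbols were checked through Entrez identifiers for 34741, and 0 changed.

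Log2 signals without an offset were compared with limma 3.58.1 (lmFit, then eBayes with a trend of variance on mean signal) in R 4.3.3, over the 19842 non-control probe sets Present on at least 2 of the 4 arrays, with Benjamini-Hochberg adjustment at 0.05, 2 residual and 4.68 prior degrees of freedom. Gene lists were read from a fit of 10350 genes, each at its brightest probe set naming 1 gene (4.02 prior degrees of freedom). A limma fit was run on simulated signals with known changes and independent noise, and only the size of its estimates was checked. No level of recovery or of false calls was required. The methods give no model for the arrays and name a two-sided Student's test for the study, which was an alternative beside other scaling, filters, offsets and leaving out each array. The labels do not state whether the mice were littermates. The limma p-values set each difference against a spread between these livers that is partly borrowed from other probe sets. The number of arrays limits the precision. The members and lists were chosen with earlier results of these data known.

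Named by rule were all members at every probe set, *Ehmt2*, and in each list but the added clock list the 3 tested genes with the smallest p. So were *Il6*, *Il1b*, *Tnf*, *Stat3*, *Socs3*, *Cebpb*, *S100a8*, *S100a9* and *Ltf*, and the 3 genes with the profile nearest to the member probe set of largest change. The clock genes, *Crp*, *Adipoq*, *Lep*, *Rgs5*, the neighbours of *Saa2* and the genes of the closing observations were chosen after their values were seen. For the fold of *Ehmt2*, Absent signals were set no lower than the lowest Present signal of their array, which changed none of them. Promoters came from a RefSeq table of GRCm38.p6, in which 8 of the 10 members matched. Motifs were searched on both strands.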

Additional observations from a re-analysis of the deposited data

How the results depend on the processing

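No paired analysis was possible because the replicate numbers only follow the order of accessions. Over the settings other than leaving out an array, 95 of 96 values of single member probe sets kept their direction and side of the threshold. The exception was *Hp*, at 0.056 with quantile normalization. This count is no measure of robustness, since most settings reuse the same log2 signals. Direction could change only with median centring, quantile normalization, the offset and the mean of a gene's probe sets. Settings that called no probe set at all could not move a member past the threshold. The count of all probe sets lower in *G9a*ΔHep livers was 6 with no detection filter. The counts were 0 higher and 0 lower both without the variance trend and by the methods' t-test, which gave 796 higher and 748 lower, and 1 member probe set lower, when unadjusted. The median of the reference genes was -0.13 with median centring and 0.017 with quantile normalization. Median centring moves every log2 fold change by the same -0.065. The cause of the shift with quantile normalization was not tested.

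Leaving out each array in turn gave 16 to 68 probe sets higher and 0 to 21 lower, 0 to 1 member probe sets lower, and a median of the 10 genes of -0.34 to 0.52 (0.52 without WT mouse 1). Log2 fold changes of *Saa1* were -1.37 to 0.97, those of the *Saa1*/*Saa2* probe set -1.63 to 1.07, those of *Saa2* -2.11 to 1.74, *Hp* -0.096 to 0.033, *Hpx* -0.16 to 0.025, *Orm1* -0.33 to 0.067, *Orm2* -0.34 to 1.05 and *Lcn2* -0.14 to 1.98. They kept their sign for *Saa3* (-1.10 to -0.33), *Saa4* (-0.51 to -0.33 and -1.67 to -0.78) and *Apcs* (0.58 to 1.27). List medians were -0.14 to 0.016 for negative acute phase genes, -0.18 to 0.11 for other positive ones, 0.043 to 0.13 for cytokine signalling, 0.16 to 0.38 for receptors and clearance, 0.19 to 0.78 for macrophage markers, 0.15 to 0.72 for stellate cell markers, -1.09 to 1.51 for neutrophil markers, -0.091 to 0.029 for hepatocyte markers and -0.087 to -0.032 for reference genes, and 0 to 1 stellate cell markers were called higher. A fit without an array leaves a genotype with 1 mouse, which is taken to vary like the other genotype. Signals under about the 95% quantile of Absent probe sets, as for *Il6* and *Tnf*, carry no order.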

Other observations

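Genes outside the acute phase response also differed between the mice of a genotype. Of the 8684 genes Present on all 4 arrays, 29 were at least 2-fold higher in mouse 1 than in mouse 2 in both genotypes and 14 at least 2-fold lower. Genes at least 2-fold apart in opposite ways in the genotypes were not counted, and whether these differences share a source was not tested. The genes named here were chosen for this after their values were seen, and no test was made. *Cyp2c70*, a bile acid hydroxylase, had 10383 and 1822 in *G9a*ΔHep livers, against 26346 and 4248 in WT livers. *Hsd3b5*, a steroid dehydrogenase of male mouse liver, had 1439 and 479 in *G9a*ΔHep livers, against 1988 and 221 in WT livers. Like *Saa1* and *Saa2*, both were higher in mouse 1 of each genotype. In the opposite order, *Lpin1*, a phosphatidate phosphatase, had 8343 and 19631 in *G9a*ΔHep livers, against 6090 and 16120 in WT livers. *Upp2*, a uridine phosphorylase, had 5402 and 14890 in *G9a*ΔHep livers, against 6370 and 16594 in WT livers. *Apoa4*, an apolipoprotein and a member of the list of other positive acute phase genes, had 10698 and 23289 in *G9a*ΔHep livers, against 5523 and 22556 in WT livers, lower in mouse 1 of each genotype.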
